A study of Mus musculus with 6 samples.

Results

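The 36 genes described here encode the machinery that copies DNA in S phase and supplies its building blocks. They were chosen by name from a list, with earlier results of these data known, and every one was found among the 19285 genes with expression values. Shares of these genes set beside shares of all genes are therefore descriptions and not independent support. RNA came from primary cultures of mouse testicular peritubular myoid cells of the strain C57BL/6J, grown in medium with serum. Myoid cells are contractile and surround the seminiferous tubules. There were 3 libraries of untreated cells and 3 of cells given 50 nM endothelin-1 (ET-1), a peptide that contracts smooth muscle, for 5 min. The question is how transcript levels differ with and without ET-1. The labels do not tie the 3 libraries of a group to distinct animals or dishes. All p-values therefore describe the scatter among these libraries, and that scatter may be technical.

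A cell licenses replication origins in G1 by loading the ring-shaped MCM2-7 helicase onto DNA with the origin recognition complex (ORC), Cdc6 and Cdt1. In S phase Cdc45, the GINS complex and Mcm10 switch the helicase on, and polymerases held by the sliding clamp PCNA copy both strands from deoxynucleotides made by ribonucleotide reductase and thymidylate synthase. Many of these genes are transcribed at the border of G1 and S phase by E2F transcription factors, whereas genes of G2 and mitosis are known for CCAAT boxes and the cell cycle homology region in their promoters.

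Values are FPKM as the authors deposited them, which scale fragments to transcript length and library depth. All 36 genes passed the filter for testing (at least 1 FPKM in at least 3 libraries, 11664 genes). The lowest value of any of the 36 was 0.96 FPKM, for Ccne2 in ET-1 library 1. Steps in the low values gave an estimated depth of 17610000 to 18320000 fragments per library, so that Ccne2 rests on an estimated 53 to 128 fragments per library and Rrm2 on 1269 to 5618. Two-sided tests were made on log2(FPKM + 1) with limma across all 11664 genes, and a gene passed at a Benjamini-Hochberg adjusted p under 0.05. Log2 changes below are ET-1 minus untreated on that scale, which understates the change of low genes.

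Promoters were read from RefSeq (build GRCm38.p6), which had an entry for 30 of the 36 genes and none for Rfc2, Gins1, Pole, Mcm4, Gins2 and Ccne2. Each window runs from 250 bases before to 50 bases after the transcription start of the entry. For Cdc6 and Lig1 the window lies inside the gene as deposited, which begins at chr11:98907889 and chr7:13277313. The E2F consensus was searched on both strands in its 4 spellings, TTTCCCGC, TTTCGCGC, TTTGCCGC and TTTGGCGC, where matches on opposite strands may overlap. At least 1 match lay in the windows of 12 of the 30 genes (40%), against 2.6% of all 27025 genes with an entry and 4.98% of the 9373 tested genes with an entry. The 12 were Cdc6, Cdt1, Gins3, Lig1, Mcm3, Mcm5, Mcm6, Mcm7, Orc1, Pola1, Pold1 and Rfc3, and 5 of them (Mcm3, Mcm5, Mcm6, Mcm7 and Rfc3) had more than 1 match. A match is a description of letters and not a binding site, and the remaining 18 windows lack these letters only in this window.

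The stretches below show where matches lie upstream of the start of the entry, for the 6 genes with the smallest p in the comparison among those with an upstream match. Each has 120 bases, 5′ to 3′ in the direction of the gene, with the matches in capitals. Mcm6 has 3 matches, of which the first and second overlap, and the matches of Mcm5 also overlap.
Cdc6 (chr11:98907931-98908050, plus strand): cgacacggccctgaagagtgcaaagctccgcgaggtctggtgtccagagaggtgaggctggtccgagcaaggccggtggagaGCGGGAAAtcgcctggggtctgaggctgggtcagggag
Mcm5 (chr8:75109278-75109397, plus strand): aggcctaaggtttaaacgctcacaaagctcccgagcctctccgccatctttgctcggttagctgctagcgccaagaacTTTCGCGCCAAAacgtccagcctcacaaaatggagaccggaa
Mcm6 (chr1:128359715-128359834, minus strand): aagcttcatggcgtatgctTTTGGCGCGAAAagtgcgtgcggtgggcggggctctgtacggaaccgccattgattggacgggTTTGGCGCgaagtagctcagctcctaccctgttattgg
Orc1 (chr4:108579334-108579453, plus strand): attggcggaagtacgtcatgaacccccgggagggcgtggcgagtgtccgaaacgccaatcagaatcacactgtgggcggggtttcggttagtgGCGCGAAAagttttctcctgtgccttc
Mcm7 (chr5:138172011-138172130, minus strand): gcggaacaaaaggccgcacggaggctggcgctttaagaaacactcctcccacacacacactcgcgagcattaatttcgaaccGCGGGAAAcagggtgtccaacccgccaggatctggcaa
Pola1 (chrX:93632256-93632375, minus strand): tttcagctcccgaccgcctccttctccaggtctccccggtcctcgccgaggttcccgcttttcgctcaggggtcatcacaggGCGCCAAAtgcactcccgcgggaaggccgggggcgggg

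The same search in a list of 20 G2 and mitosis genes, of which 17 had an entry, gave a match in 1 (5.88%). CCAAT, searched on both strands, was present in 15 of those 17 (88.2%) and in 18 of the 30 replication genes (60%), against 41.1% of all genes and 43.1% of tested genes with an entry. The core of the cell cycle homology region, TTTGAA on either strand, was present in 12 of the 17 (70.6%) and in 4 of the 30 (13.3%), against 20.2% of all genes and 14% of tested genes with an entry. Median GC content of the windows was 59.7% in the replication genes, 58% in the G2 and mitosis genes, 61% in tested genes and 52.8% in all genes with an entry.

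Every one of the 36 replication genes had a lower mean on the log2 scale after ET-1, and the difference was modest. The median of the ratio of mean FPKM, ET-1 to untreated, was 0.715 (range 0.425 for Rrm2 to 0.945 for Tk1). The median log2 change was -0.456, against -0.027 for all tested genes, of which 54.3% were below 0. A single member passed the test, Ccne2, which fell (limma adjusted p = 0.0375). Among all tested genes 1.89% passed as lower and 1.57% as higher. With the replicate number as a block, 14 members fell and none rose, where 5.19% of tested genes passed as lower and 4.26% as higher. The labels do not say what a replicate number stands for. The values of the groups did not overlap, with ET-1 lower, in 19 of the 36 members and in 17.6% of tested genes. At an unadjusted p of 0.05, 23 members were lower, against 13.5% of tested genes. The authors' deposited table gives all 36 a negative log2 fold change with a q under 0.05, as it does for 42.7% of tested genes.

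**Figure D1:**
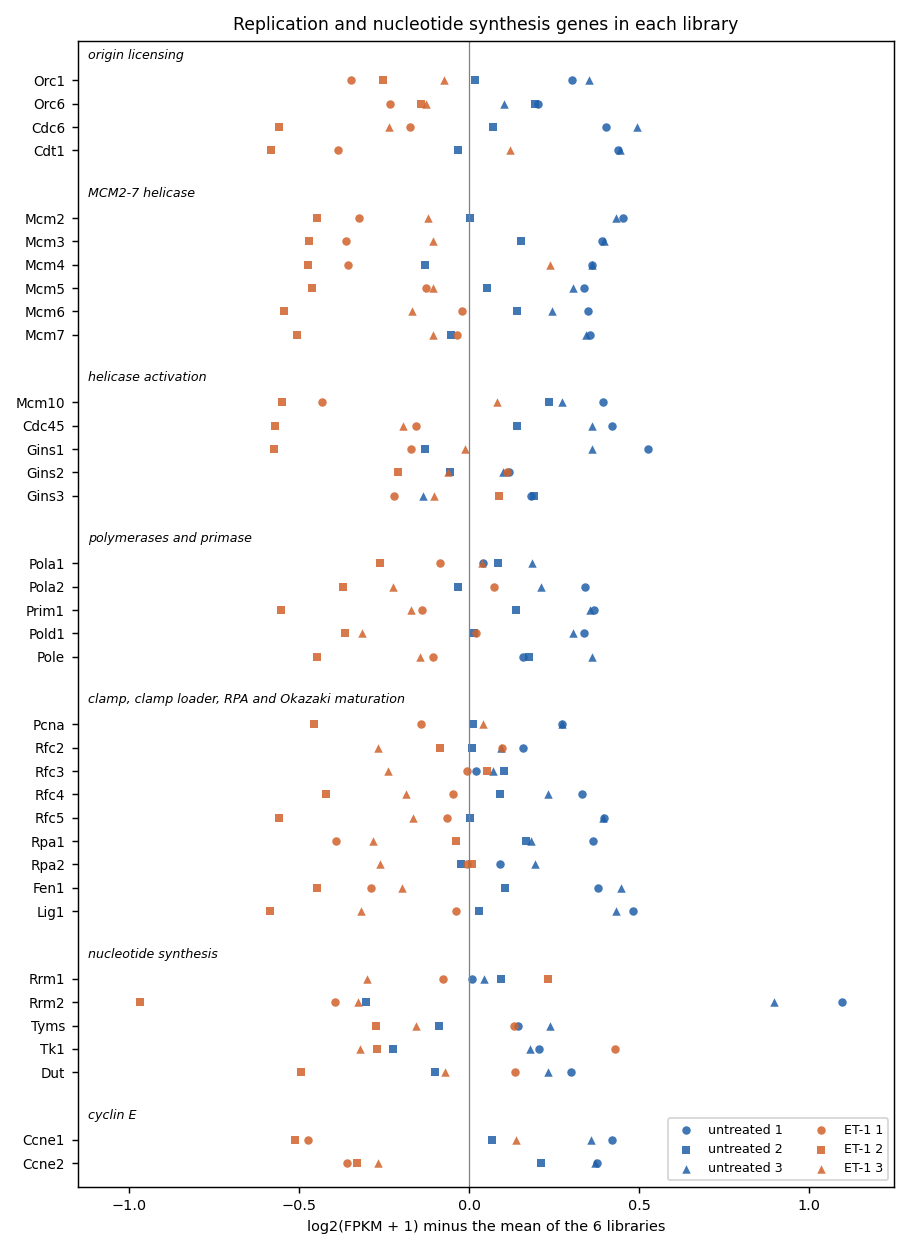
Level of each of the 36 genes in each library as log2(FPKM + 1) minus the mean of that gene's 6 libraries (x axis), with genes grouped by role (y axis). Blue symbols are untreated and orange symbols ET-1 libraries, and the shape gives the library number. Most orange symbols lie to the left, ET-1 library 2 is the farthest left in 26 genes, and untreated library 2 (blue squares) lies closest to the ET-1 libraries.

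The call of Ccne2 was lost without untreated library 1 (limma adjusted p = 0.134), untreated library 3 (0.201), ET-1 library 1 (0.0964) or ET-1 library 2 (0.0854). It was also lost when untreated libraries 1 and 3 were averaged (0.162) and without a filter (0.0525). It held without untreated library 2 (0.046) or ET-1 library 3 (0.0422).

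Cyclin E binds and activates Cdk2 at the start of S phase, and it has a pair of genes. The values below are in the order of library numbers 1, 2 and 3. Ccne2 (mm10, chr4:11191351-11204779, plus strand) was at 2.26, 1.91 and 2.25 FPKM in untreated cells and at 0.96, 1 and 1.09 FPKM after ET-1. The groups were well apart, at 2.14 ± 0.199 and 1.02 ± 0.0666 FPKM (mean ± SD, n = 3 each), a ratio of 0.475. Exons of Ccne2 overlap those of Ints8 on the other strand, and the sources used here do not state whether counting used the strand. Ints8 was at 12.43 to 15.04 FPKM in the 6 libraries (log2 change -0.11). Ccne1 was at 10.85, 8.27 and 10.36 FPKM in untreated cells and at 5.38, 5.21 and 8.75 FPKM after ET-1. ET-1 library 3 lay above untreated library 2, and Ccne1 did not pass (log2 change -0.56 ± 0.20, SE; limma adjusted p = 0.154). It passed without ET-1 library 3 (limma adjusted p = 0.0433).

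Among the 4 genes of origin licensing, the levels of 3 did not overlap between groups, with ET-1 lower, against 17.6% of tested genes. Cdc6, the ATPase that works with ORC to load the helicase, was at 4.09, 3.04 and 4.42 FPKM in untreated cells and at 2.41, 1.61 and 2.27 FPKM after ET-1. All ET-1 libraries lay below all untreated ones, with a log2 change of -0.65 ± 0.17 (SE; limma adjusted p = 0.0817, or 0.0306 when blocked by replicate number). Orc1, the largest ORC subunit, was at 3.53, 2.72 and 3.69 FPKM and at 1.89, 2.08 and 2.49 FPKM after ET-1 (limma adjusted p = 0.119). Orc6, the smallest ORC subunit, was at 22.56, 22.42 and 20.99 FPKM and at 16.43, 17.54 and 17.75 FPKM (limma adjusted p = 0.0877). Its libraries lay close together within each group, and its ratio of means, 0.784, was nearer to 1 than that of Orc1 (0.65) or Cdc6 (0.545). Orc6 shares exon sequence with Vps35 on the other strand, which itself was lower (log2 change -0.29, limma adjusted p = 0.241). Cdt1, which brings the helicase to the origin, was at 17.5, 12.36 and 17.56 FPKM and at 9.45, 8.12 and 13.85 FPKM. Here ET-1 library 3 lay above untreated library 2 (limma adjusted p = 0.174, and 0.0498 with the block).

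The 6 subunits of the MCM2-7 helicase form 1 ring, and all 6 were lower by sign. Mcm3 was at 31.24, 26.37 and 31.38 FPKM in untreated cells and at 18.14, 16.78 and 21.86 FPKM after ET-1. The groups did not overlap, and Mcm3 missed the threshold (log2 change -0.63 ± 0.13, SE; limma adjusted p = 0.0541, and 0.0235 with the block). Mcm2 was at 24.4, 17.6 and 24.03 FPKM and at 13.84, 12.62 and 16.08 FPKM after ET-1. Mcm5 was at 26.43, 21.53 and 25.82 FPKM and at 18.9, 14.76 and 19.17 FPKM. In Mcm2, Mcm3, Mcm5 and Mcm6 the groups did not overlap. Mcm6 was at 28.62, 24.65 and 26.57 FPKM and at 21.91, 14.96 and 19.69 FPKM. Mcm7, the most abundant subunit by FPKM, was at 45.92, 34.39 and 45.59 FPKM and at 34.84, 24.87 and 33.1 FPKM. Its groups overlapped, since ET-1 library 1 lay above untreated library 2. Mcm4 was at 21.2, 14.79 and 21.18 FPKM and at 12.49, 11.45 and 19.37 FPKM, and ET-1 library 3 lay within the untreated range. None of the 6 passed without the block (limma adjusted p from 0.0541 for Mcm3 to 0.333 for Mcm4). With the replicate block 5 passed as lower, against 5.19% of tested genes, and Mcm4 did not (limma adjusted p = 0.128). All 6 subunits were lowest in ET-1 library 2, and among untreated libraries all 6 were lowest in library 2. Exons of Mcm7 overlap those of Ap4m1 and Cops6 on the other strand.

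**Figure D2:**
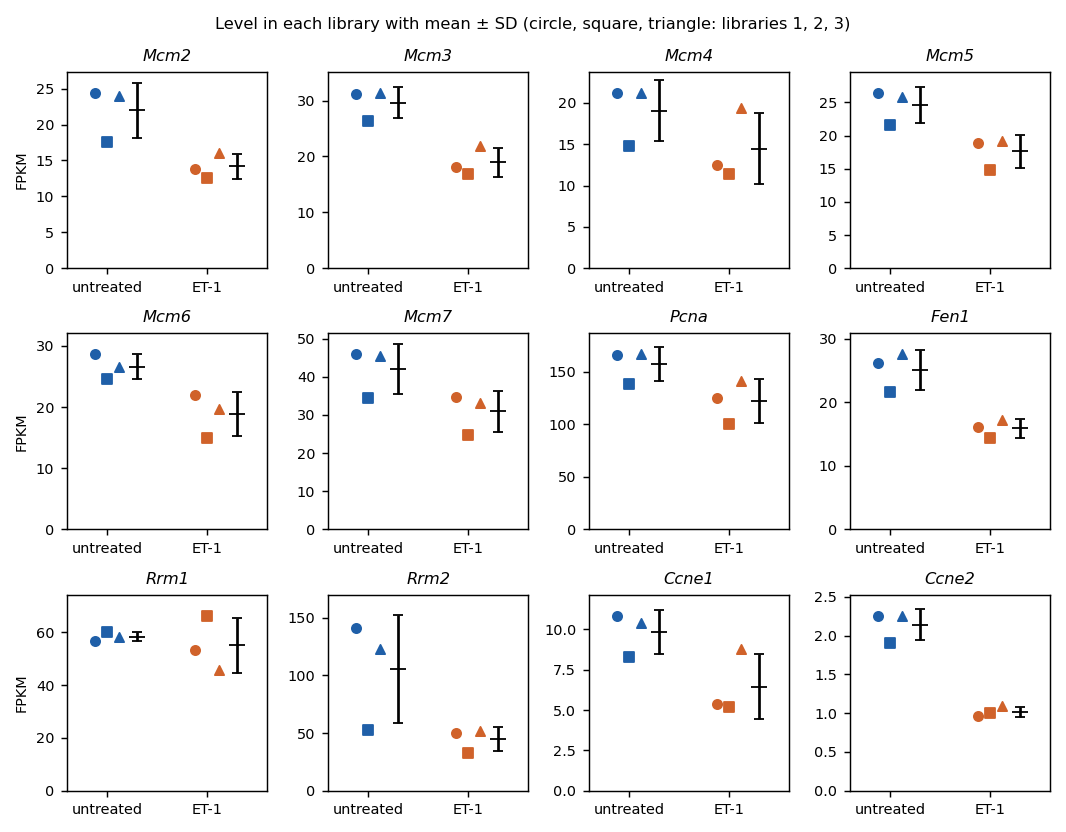
FPKM (y axis, from 0) of 12 of the genes in untreated and ET-1 libraries (x axis). Points are single libraries and bars show mean ± SD (n = 3 each). Ccne2, Fen1 and Mcm3 show a gap between the groups, whereas Rrm1 overlaps, and untreated library 2 of Rrm2 (52.98 FPKM) lies beside the ET-1 libraries.

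Genes that turn the loaded helicase into a moving one differed in how far their groups lay apart. Cdc45, which joins the helicase to GINS, was at 15.74, 12.78 and 15.04 FPKM in untreated cells and at 10.21, 7.42 and 9.92 FPKM after ET-1. The groups did not overlap (log2 change -0.61 ± 0.15, SE; limma adjusted p = 0.0741, and 0.0262 with the block). Mcm10, a scaffold of the starting fork, was at 6.56, 5.78 and 5.95 FPKM and at 3.27, 2.93 and 5.09 FPKM. ET-1 library 3 stood nearest to the untreated cells, and without it Mcm10 passed (limma adjusted p = 0.0344, against 0.111 with all libraries). The GINS complex joins the helicase at the fork, and differences between its subunits were not tested. Gins1 had a ratio of mean FPKM of 0.664, Gins3 of 0.846 and Gins2 of 0.929, and none of the 3 passed (limma adjusted p from 0.217 to 0.604). Gins2 was at 30.18, 26.68 and 29.81 FPKM and at 30.09, 23.87 and 26.53 FPKM, so the groups overlapped. Gins4, the remaining subunit and not among the 36, was at 29.55 ± 0.622 FPKM in untreated cells and 32.08 ± 3.89 FPKM after ET-1 (n = 3 per group; limma adjusted p = 0.585).

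Polymerase genes were lower with groups that did not overlap in 3 of 5, against 17.6% of tested genes. Prim1, the catalytic subunit of the primase that starts each new strand, was at 19.34, 16.34 and 19.18 FPKM in untreated cells and at 13.33, 9.76 and 13.02 FPKM after ET-1. Every ET-1 value lay below every untreated value (log2 change -0.57 ± 0.14, SE; limma adjusted p = 0.0793, and 0.0299 with the block). Pole, the catalytic subunit of the leading-strand polymerase epsilon, was at 4.05, 4.11 and 4.82 FPKM and at 3.21, 2.32 and 3.1 FPKM (limma adjusted p = 0.108). Pold1, the catalytic subunit of polymerase delta, and Pola2, a subunit of polymerase alpha, had ratios of 0.716 and 0.773 with overlapping groups. Pola1, the catalytic subunit of polymerase alpha, was at 3.58, 3.73 and 4.06 FPKM and at 3.2, 2.72 and 3.57 FPKM, which did not overlap only by the last digit, between untreated library 1 and ET-1 library 3.

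At the fork, Pcna was the most abundant of the 36 genes on average, at 166.26, 138.57 and 166.5 FPKM in untreated cells and at 124.5, 99.91 and 141.4 FPKM after ET-1. ET-1 library 3 lay just above untreated library 2, and Pcna did not pass (log2 change -0.37 ± 0.15, SE; limma adjusted p = 0.193). Okazaki fragments, the pieces of the lagging strand, are trimmed and joined by Fen1 and Lig1. Fen1, the flap endonuclease, was at 26.22, 21.53 and 27.54 FPKM and at 16.15, 14.35 and 17.26 FPKM. No values overlapped, and Fen1 narrowly missed the threshold (log2 change -0.62 ± 0.13, SE; limma adjusted p = 0.0515, and 0.0211 with the block). Lig1, the ligase that seals the fragments, was at 29.26, 21.12 and 28.23 FPKM and at 20.13, 13.44 and 16.39 FPKM. The groups did not overlap (limma adjusted p = 0.103, and 0.0233 with the block). Fen1 shares exon sequence with Tmem258 on the other strand, which was at 132.92 to 139.83 FPKM in untreated and 146.52 to 200.9 FPKM in ET-1 libraries.

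The clamp loader opens PCNA and places it on DNA. Rfc4 and Rfc5 had ratios of mean FPKM of 0.725 and 0.675 with groups that did not overlap, while Rfc2 and Rfc3 had ratios of 0.889 and 0.914 with groups that did. Rfc3 was at 21.88, 23.21 and 22.65 FPKM in untreated cells and at 21.45, 22.37 and 18.11 FPKM after ET-1. ET-1 library 3 stood away from the rest in Rfc3. Of the clamp loader genes, Rfc5 alone passed with the block (limma adjusted p = 0.0338), where 5.19% of tested genes passed as lower. Whether subunits differ from each other was not tested. Exons of Rfc5 overlap those of Wsb2 on the other strand, which was at 179.63 to 280.26 FPKM in the 6 libraries. Rfc4 likewise overlaps Eif4a2 (75.32 to 107.17 FPKM, log2 change -0.26), and Rfc2 overlaps Lat2 (1.7 to 8.19 FPKM). RPA coats single-stranded DNA at the fork. Rpa1, its large subunit, was at 37.04, 32.17 and 32.55 FPKM and at 21.55, 27.77 and 23.32 FPKM, without overlap (limma adjusted p = 0.081). Rpa2, its middle subunit, was at 16.79, 15.43 and 18.11 FPKM and at 15.63, 15.79 and 12.93 FPKM, with overlap (limma adjusted p = 0.412). Rpa1 was highest among ET-1 libraries in library 2, the library in which most members were lowest.

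Nucleotide synthesis held both the largest and the smallest differences. Rrm2 (mm10, chr12:24708254-24714146, plus strand), the small subunit of ribonucleotide reductase, was at 141.37, 52.98 and 122.94 FPKM in untreated cells and at 49.7, 33.06 and 52.1 FPKM after ET-1. The groups did not overlap, but untreated library 2 exceeded ET-1 library 3 by under 1 FPKM, and the SD of the untreated libraries was 46.6 FPKM around a mean of 105.8 (ET-1 44.95 ± 10.4 FPKM, n = 3 each). Rrm2 had a log2 change of -1.13 ± 0.37 (SE; limma adjusted p = 0.133). It passed with the block (0.0179) and without untreated library 2 (0.0271, log2 change -1.56). Rrm1, the large subunit of the same enzyme, was at 56.61, 60.18 and 58.02 FPKM and at 53.3, 66.27 and 45.52 FPKM, with the ET-1 libraries on both sides of the untreated ones. The FPKM ratio of Rrm2 to Rrm1 was 2.5, 0.88 and 2.12 in untreated cells and 0.932, 0.499 and 1.14 after ET-1. Untreated library 2 lay inside the ET-1 range of this ratio.

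The thymidine genes overlapped between groups. Tyms, thymidylate synthase, was at 19.23, 16.21 and 20.59 FPKM in untreated cells and at 19.06, 14.14 and 15.42 FPKM after ET-1. Tk1, the salvage enzyme thymidine kinase, was at 33.69, 24.79 and 33.08 FPKM and at 39.49, 23.97 and 23.1 FPKM, so that its highest value was in ET-1 library 1. Dut, which keeps uracil out of DNA by breaking down dUTP, had a ratio of 0.813 (limma adjusted p = 0.404). Without ET-1 library 3 the signs of Rrm1 (log2 change 0.029) and Tk1 (0.025) turned. The other 34 members kept a lower mean after ET-1 in that setting. Without ET-1 library 2 the change of Tk1 rounded to 0.

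**Figure D3:**
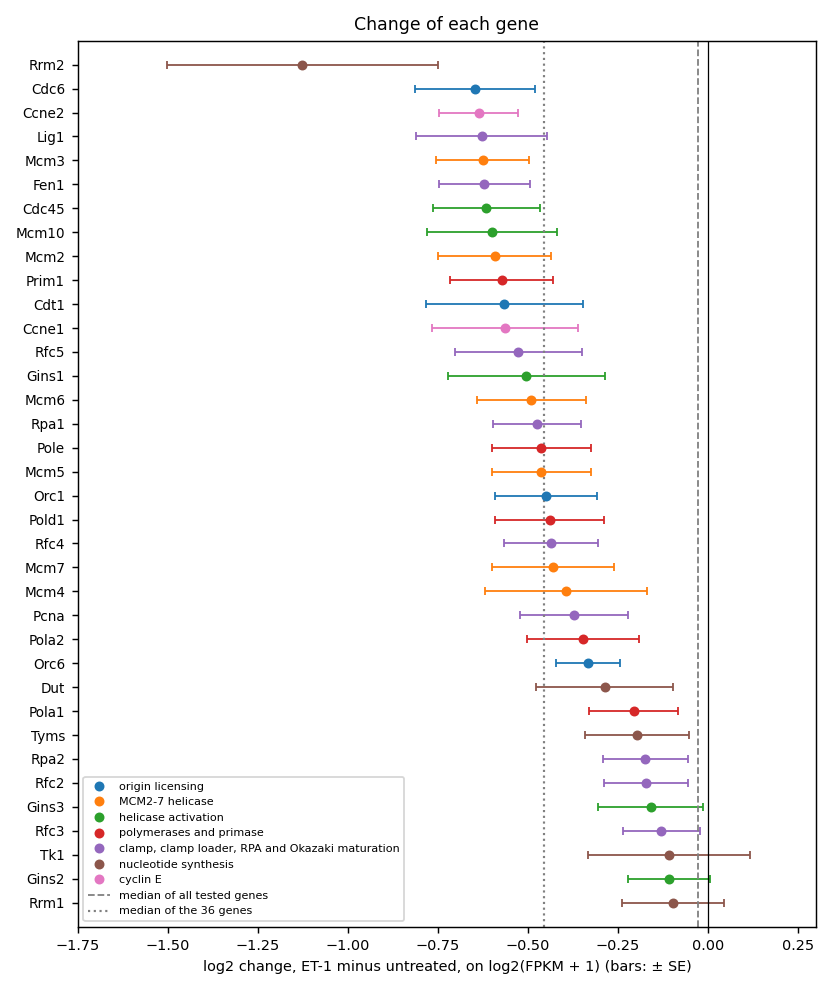
Log2 change of each of the 36 genes, ET-1 minus untreated on log2(FPKM + 1) (x axis, bars ± SE from limma), ordered by size with the role given by colour. The dotted line marks the median of the 36 genes (-0.456) and the dashed line that of all tested genes (-0.027). All points lie below 0, and the bars of Tk1, Gins2 and Rrm1 reach it.

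Number 2 was the low library for these genes in both groups. Untreated library 2 was the lowest untreated library in 30 of the 36 genes, and ET-1 library 2 the lowest ET-1 library in 26. Among all 11664 tested genes the counts were 5098 and 3586. Between libraries of the same number, ET-1 was lower in 35, 34 and 35 members for numbers 1, 2 and 3, with median ratios of 0.713, 0.719 and 0.729. The exceptions were Tk1 for number 1, Rpa2 and Rrm1 for number 2 and Gins3 for number 3. Members lower in all 3 numbers were 32 of 36, against 29.4% of tested genes. For 15 of the 36 genes (41.7%) untreated library 2 lay inside the ET-1 range, close to the 39.8% of all tested genes. Untreated library 1 did so in 3 genes (8.33%) and untreated library 3 in 5 (13.9%), against 43.2% and 45.3% of all tested genes. Without untreated library 2, groups did not overlap in 30 members and in 25.4% of tested genes, an alternative added after the values were seen. Leaving out a library can only keep or raise such counts.

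Further genes of DNA replication, not among the 36, were lower as well by sign. Of 39 tested members of the list, 36 were lower, against 54.3% of all tested genes, with a median log2 change of -0.306. Of the 39, 2 fell and none rose, against 1.89% and 1.57%, and 7 fell with the block, against 5.19%. Uhrf1, which recognises hemimethylated DNA behind the fork, had 20.13 ± 3.2 FPKM in untreated cells and 11.17 ± 1.49 FPKM after ET-1 (n = 3 per group; limma adjusted p = 0.0463). Pole4, a small subunit of polymerase epsilon, fell from 41.24 ± 0.819 FPKM to 29.25 ± 0.658 FPKM (n = 3 per group; limma adjusted p = 0.0354). Tipin, a fork protection factor, was at 18.55 ± 2.91 and 11.6 ± 1.3 FPKM (n = 3 per group; limma adjusted p = 0.0684, or 0.0281 with the block). Pold4, a small subunit of polymerase delta, was higher without overlap at 53.9 ± 6.24 and 71.42 ± 8.48 FPKM and did not pass (n = 3 per group; limma adjusted p = 0.131).

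Enzymes of nucleotide metabolism outside the 36 were lower by sign in 29 of 33 tested genes (median log2 change -0.334), against 54.3% of all tested genes. Of these 3 fell and none rose, against 1.89% and 1.57%, and 9 fell with the block, against 5.19%. Most make nucleotides, but Samhd1 breaks deoxynucleotides down, and it was among the lower genes (ratio 0.599, limma adjusted p = 0.076, or 0.0331 with the block). Ctps, CTP synthase, had 80.71 ± 2.75 and 45.38 ± 8.9 FPKM (n = 3 per group; limma adjusted p = 0.0402). Gart, an enzyme of purine synthesis, went from 34.98 ± 0.681 to 23.79 ± 0.942 FPKM, and Cmpk1, which phosphorylates UMP and CMP, from 50.8 ± 2.19 to 35.54 ± 0.905 FPKM (n = 3 per group; limma adjusted p = 0.0304 and 0.0354). In a list of the E2F and RB families, which also holds Lin9, Lin54, Mybl2 and Foxm1, 13 of 16 tested genes were lower by sign (median -0.215). E2f4, an E2F known mainly as a repressor, fell, with 38.62 ± 0.839 FPKM without and 26.43 ± 2.04 FPKM with ET-1 (n = 3 per group; limma adjusted p = 0.0375). Mybl2, a transcription factor of the cell cycle, and E2f8, an atypical E2F repressor, were at ratios of 0.741 and 0.628 and did not pass. All 6 calls in the pathway lists were lost without untreated library 1 or 3, without ET-1 library 1, and when untreated libraries 1 and 3 were averaged. Uhrf1 alone was left without untreated library 2, Ctps alone without ET-1 library 2, and all but Uhrf1 without ET-1 library 3. Uhrf1 and Ctps also lost their calls without a filter (limma adjusted p = 0.0747 and 0.0636), with quantile normalization (0.063 and 0.0528) and with equal medians (0.0605 and 0.0529). Uhrf1 lost its call with a pseudocount of 5 (0.0532) and with no mean-variance trend (0.051).

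The lists of other cell cycle phases had smaller medians. A list of 8 tested genes held G1 cyclins and cyclin-dependent kinases, with cyclin A2 (Ccna2) and the phosphatase Cdc25a. Of the 8, 5 were lower by sign (median -0.114), against 54.3% of tested genes, and none passed. Cdk2, the kinase that cyclin E activates, was at 16.88 ± 2.63 and 11.84 ± 2.12 FPKM, and Ccnd1, cyclin D1, at 18.98 ± 3.02 and 25.29 ± 3.85 FPKM (n = 3 per group; limma adjusted p = 0.142 and 0.182). Ccnd3, cyclin D3, had a ratio of 0.822. Of 20 tested G2 and mitosis genes, 11 were lower and 9 higher by sign (median -0.063), near the 54.3% of tested genes that were lower. None passed, and in none did the groups separate in either direction. With the block 1 of the 20 passed as lower, a share near the 5.19% of all tested genes. It was the survival and chromosome passenger gene Birc5 (limma adjusted p = 0.0492). Top2a and Bub1, the next by p, had limma adjusted p of 0.427 and 0.524. All 20 of these mitosis genes were lowest in library 2 among untreated and among ET-1 libraries alike. The difference between this list and the 36 replication genes was not tested.

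**Figure D4:**
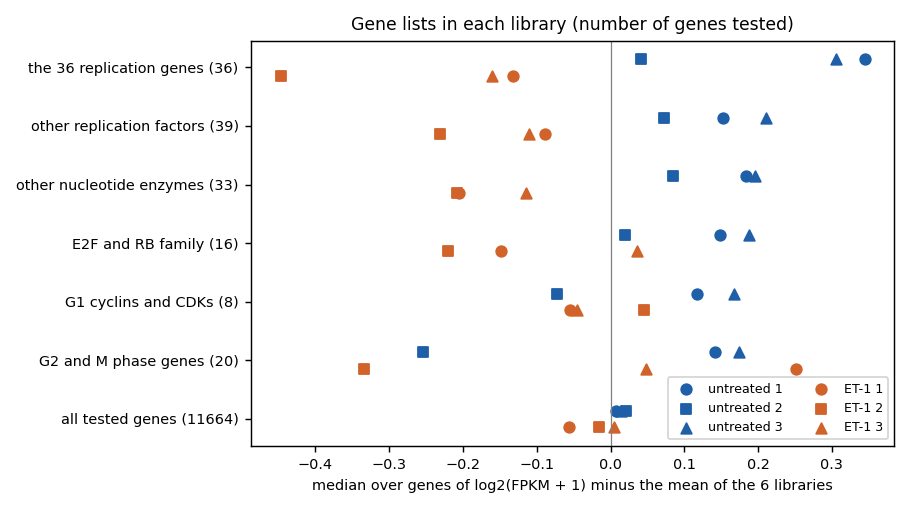
Median over the genes of each list of log2(FPKM + 1) minus the mean of the 6 libraries (x axis), for the 36 replication genes, the other lists and all tested genes (y axis, number of genes tested in brackets). Blue symbols are untreated and orange symbols ET-1 libraries. For the 36 genes the untreated libraries lie at 0.345, 0.041 and 0.305 and the ET-1 libraries at -0.132, -0.447 and -0.161, whereas in the G2 and M phase list libraries numbered 2 of both groups lie at -0.254 and -0.334.

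Summed levels of some cell type markers moved with the groups, and those of others overlapped. Markers of the myoid cell were abundant, with summed levels of Acta2, Myh11, Cnn1, Tagln, Des and Actg2 of 3088 to 3561 FPKM in untreated and 3532 to 5026 FPKM in ET-1 libraries, which overlap. Cnn1 and Tagln were higher without overlap (ratios 1.69 and 1.31), and Acta2 and Actg2 were higher by sign. Myh11 and Des were lower by sign (0.695 and 0.746). Summed over 10 macrophage markers the levels were 93.53 to 187.1 and 288.2 to 713 FPKM, and over 8 Sertoli markers 893.8 to 1991 and 2737 to 5891 FPKM, higher in every ET-1 library. All 10 macrophage markers were higher by sign, 7 of them without overlap (against 13.2% of tested genes), and Mrc1 had the lowest ratio (1.06). Clu made up 93.9% to 96.1% of each Sertoli sum, and without it the sums were 54.12, 111.9 and 61.97 FPKM in untreated and 108.4, 267 and 158.1 FPKM in ET-1 libraries, which overlap. Aard was also higher without overlap (ratio 5.11, limma adjusted p = 0.0245). So was Amh (ratio 2.43), which lay under 1 FPKM in every library and was not tested. Fshr was lower by sign (ratio 0.483), and the levels of Sox9, Gata1, Dhh and Rhox5 overlapped between the groups. Over 7 endothelial markers they were 43.86 to 73.85 and 20.86 to 39.28 FPKM, lower in every ET-1 library, although Cdh5 was higher by sign (ratio 1.22). Over 6 Leydig markers they were 2335 to 4960 and 827.7 to 2422 FPKM, with Cyp17a1 at 0 in some libraries of both groups. Insl3 made up 74.2% to 91.4% of each Leydig sum, and Star was higher after ET-1 without overlap (ratio 1.77). Over 9 germ cell markers they were 6.19 to 8.77 and 4.81 to 10.16 FPKM, with Stra8 at 0 in libraries of both groups. Of the marker genes, 1 of 10 macrophage and 1 of 7 tested Sertoli genes rose and 3 of 5 tested endothelial genes fell. Among all tested genes 1.57% rose and 1.89% fell. With the block 6 macrophage and 3 Sertoli genes rose, 4 endothelial genes fell, and of 4 tested Leydig genes 2 fell and 1 rose. The shares of all tested genes with the block were 4.26% higher and 5.19% lower. Their part in the levels of the replication genes was not tested. In bulk RNA, fewer cells in S phase, less of these transcripts per cell and a different mix of cell types cannot be told apart.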

How the data were processed

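Total RNA of 3 untreated and 3 ET-1 libraries was made into libraries with the BGI protocol, per the labels. Groups and replicate numbers come from the sample titles. The submitters' processing notes name RSEM 1.2.12, HISAT2 2.0.4 and Bowtie2 2.2.5, without their roles, and mm10 as the build. The authors deposited 1 table with an FPKM value per gene and library. It also holds a log2 fold change, a p-value and a q-value of the authors' comparison (DEGseq is named, per the file headers), and nothing used here states how replicates entered it. A negative log2 value there means lower after ET-1, as the mean FPKM showed in 99.5% of genes. Read counts were not used. Depth was estimated from single-transcript genes whose low FPKM values lay within 0.15 of whole fragments in 82.9% to 88.3% of cases, and it limits the precision of low genes.

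log2(FPKM + 1) was tested with limma 3.58.1 under R 4.3.3, using a mean-variance trend, empirical Bayes moderation and no term but group. This step was tried on simulated data with independent noise in each gene and library. The simulation lacks the deviations that libraries share across genes, described below, and so does not show how the test behaves with them. An exact permutation test of 3 against 3 libraries cannot go below p = 0.1, so none is given. Alternatives were other pseudocounts, filters and scalings, no trend, a replicate block, each library left out, and untreated libraries 1 and 3 averaged, since they were the closest pair (Pearson r = 0.996, against 0.973 to 0.983 for other pairs within a group). The deviations of libraries from their group means went together within a number (correlations across genes of 0.228, 0.523 and 0.202 for numbers 1 to 3, all above 0.1), so the block is given beside results it changes. Crossed numbers 3 and 1 (0.271) and 1 and 3 (0.249) correlated as well, so a pairing of numbers 1 and 3 is not shown.

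Genes named outside the 36 are those of the pathway lists past the threshold and the 3 with the smallest p in each list. Gins4, Pold4 and the overlapping genes were added once their values were known. The members and lists were chosen with earlier results of these data known. Exon overlaps were read from GENCODE M21 (mm10), in which 13 of the 36 genes overlap a gene on the other strand. The 13 are Ccne2, Cdc45, Fen1, Gins2, Lig1, Mcm7, Orc1, Orc6, Pole, Rfc2, Rfc4, Rfc5 and Tk1.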

Additional observations from a re-analysis of the deposited data

How the results depend on the processing

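The counts of calls depended on the setting, and the direction of the members did so little. Members that fell numbered 1 with all libraries, 14 with the replicate block, 0 without a filter, 0 with untreated libraries 1 and 3 averaged, and 0 to 5 when single libraries were left out (0 without untreated library 1 or 3 or ET-1 library 1 or 2, 3 without untreated library 2, and 5 without ET-1 library 3). None rose in any of these settings. All tested genes past the threshold numbered 404, against 1102 with the replicate block, 193 without a filter, 9 with untreated libraries 1 and 3 averaged, and 0 to 797 with single libraries left out. The count of 0, from limma without untreated library 3, went with 1653 genes at an unadjusted p of 0.05. The median log2 change of the 36 genes lay between -0.547 and -0.323 in all 15 alternatives, and it was -0.414 with equal medians and -0.403 with quantile normalization. By sign all 36 members were lower in each of them except without ET-1 library 3, where Rrm1 (0.029) and Tk1 (0.025) turned (over all libraries left out, -0.237 to 0.029 for Rrm1 and -0.349 to 0.025 for Tk1). The changes of filter, the replicate block and the lack of a trend cannot alter a log2 change (median -0.456 in each). Those settings therefore do not try the median or the signs. Members with separated groups numbered 19 (17.6% of tested genes), and 20 to 30 with single libraries left out (19% to 28.9% of tested genes). Leaving out a library cannot lower this count, so its rise is no sign of stability. Over members and settings, 513 of the single-gene results kept their direction and their call or lack of one. Since Ccne2 was the only call, nearly all of these were genes that did not pass in either setting. A further 19 passed only in the alternative, 6 lost the call of Ccne2 and 2 changed sign. The 12 genes with an E2F match became 8 in the 250 bases upstream alone (4.17% of tested genes) and 10 with 2 spellings, TTTCCCGC and TTTGGCGC (3.66%). The causes were not tested.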
